A study of Mus musculus with 6 samples.

Results

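The messages described here encode the DNA replication machinery: the proteins that mark and license replication origins, the helicase that unwinds DNA, the replicative polymerases, and the sliding clamp with its loader. They are the 42 genes of a list set by name, sorted into 10 subcomplexes, out of 51912 genes matched in the files and 13231 with enough reads to test. All 42 passed the filter on low counts, with mean estimated counts per library between 209 for Gins3 and 4126 for Pcna. The measurement is RNA-seq of polyadenylated RNA in E14, an embryonic stem cell line of the mouse, with 6 libraries: 3 resin eluates and 3 sucrose cushion pellets. Cells of both groups received cycloheximide, an inhibitor that freezes translating ribosomes in place, at 100 µg/mL for 3 minutes. In both groups lysates were spun through a sucrose cushion, so a pellet holds ribosomes and whatever else sediments with them. An eluate is cushion material that was further purified on a resin charged with cysteine, the step that the method RAPIDASH adds. Per the labels' protocols every cushion supplied both a directly extracted sample, the pellet library, and a load for the resin, but no label says which eluate and pellet came from the same cushion. All libraries come from 1 unmodified cell line, and the labels do not say that the replicates were separate cultures. The p-values therefore measure only the spread between these samples, which may be technical.

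Before S phase, the origin recognition complex binds DNA, and Cdc6 and Cdt1 load rings of Mcm2 to Mcm7 onto it. Cdc45 and the GINS complex then join the ring to form the active helicase. DNA polymerase alpha with primase starts each strand, polymerase epsilon extends the leading strand, and polymerase delta extends the lagging strand. Replication factor C loads the clamp PCNA, RPA covers single-stranded DNA, and Fen1 and Lig1 process and join Okazaki fragments. Embryonic stem cells divide quickly and spend much of their cycle in S phase.

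The design asks how the messages left after the resin differ from those in the pellet it was loaded with. Total estimated counts were 1.16e+07, 1.13e+07 and 1.002e+07 in eluates 1 to 3 and 8.44e+06, 1.04e+07 and 7.84e+06 in pellets 1 to 3. All 10 pluripotency markers examined were detected, at a summed 15441 to 15501 TPM in the eluates and 11615 to 13029 TPM in the pellets. Most of that sum was Dppa5a, at 10196 to 10364 TPM in the eluates and 7134 to 8008 TPM in the pellets. Of the 10, 5 were called higher in the eluates and 2 lower, beside 24.5% and 28.2% of all genes tested. With the trend in GC content and length removed, as described further on, Pou5f1 turned from 0.39 to -0.16 on the log2 scale. It was called in both fits, so no direction is given for it. Zfp42 lost its lower call there, while Nanog and Tdgf1 were newly called higher and Klf4 lower. The 8 markers of fibroblast feeder cells, 2 of them tested and 1 of those higher, summed to 9.45 to 12.5 TPM in the eluates and 6.14 to 9.39 TPM in the pellets, nearly all of it Thy1, with Lum and Postn at 0 in every library and Col1a1, Col1a2 and Col3a1 near 0. TPM (a transcripts-per-million value) is a level per length and serves here to compare one gene with another. The 6 markers of primitive endoderm, of which 1 rose, summed to 4.93 to 5.65 TPM in the eluates and 3.77 to 6.10 TPM in the pellets, the 5 of mesoderm to 3.09 to 3.22 TPM in the eluates and 2.71 to 3.12 TPM in the pellets, and the 5 of neural ectoderm, mostly Tubb3 with Neurog2 at 0 and 1 lower, to 46.8 to 55.2 TPM in the eluates and 46.95 to 61.7 TPM in the pellets. The part of other cells in the results was not tested.

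Most of the replication messages that changed were lower in the eluates. Of the 42, 22 fell, 8 rose and 12 did not pass, at an adjusted p under 0.05 in edgeR's quasi-likelihood test with Benjamini-Hochberg adjustment over all genes tested. Of all genes tested, 52.7% were called by the same rule, 28.2% lower and 24.5% higher, so the share of members that rose was below that of all genes and the share that fell was above it. The median log2 fold change of eluate over pellet was -0.20 over the 42 members and 0.0035 over all genes tested. Sizes were mostly modest: 2 members, Pola1 and Rfc1, were lower by at least 1 on the log2 scale, a size that 8.64% of all genes tested reached in that direction. No member was higher by as much, against 0.831% of all genes. In 23 members the normalised CPM of every eluate lay below every pellet, and in 9 it lay above, where the shares over all genes tested were 31.2% and 29.1%. Normalised CPM is the estimated counts-per-million value after TMM scaling. It is a share of a library, so a message that is lower and other messages that are higher cannot be told apart on this scale. The summed share of the 42 messages in the matched counts was 0.529%, 0.508% and 0.505% in eluates 1 to 3 and 0.615%, 0.551% and 0.559% in pellets 1 to 3.

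**Figure D1:**
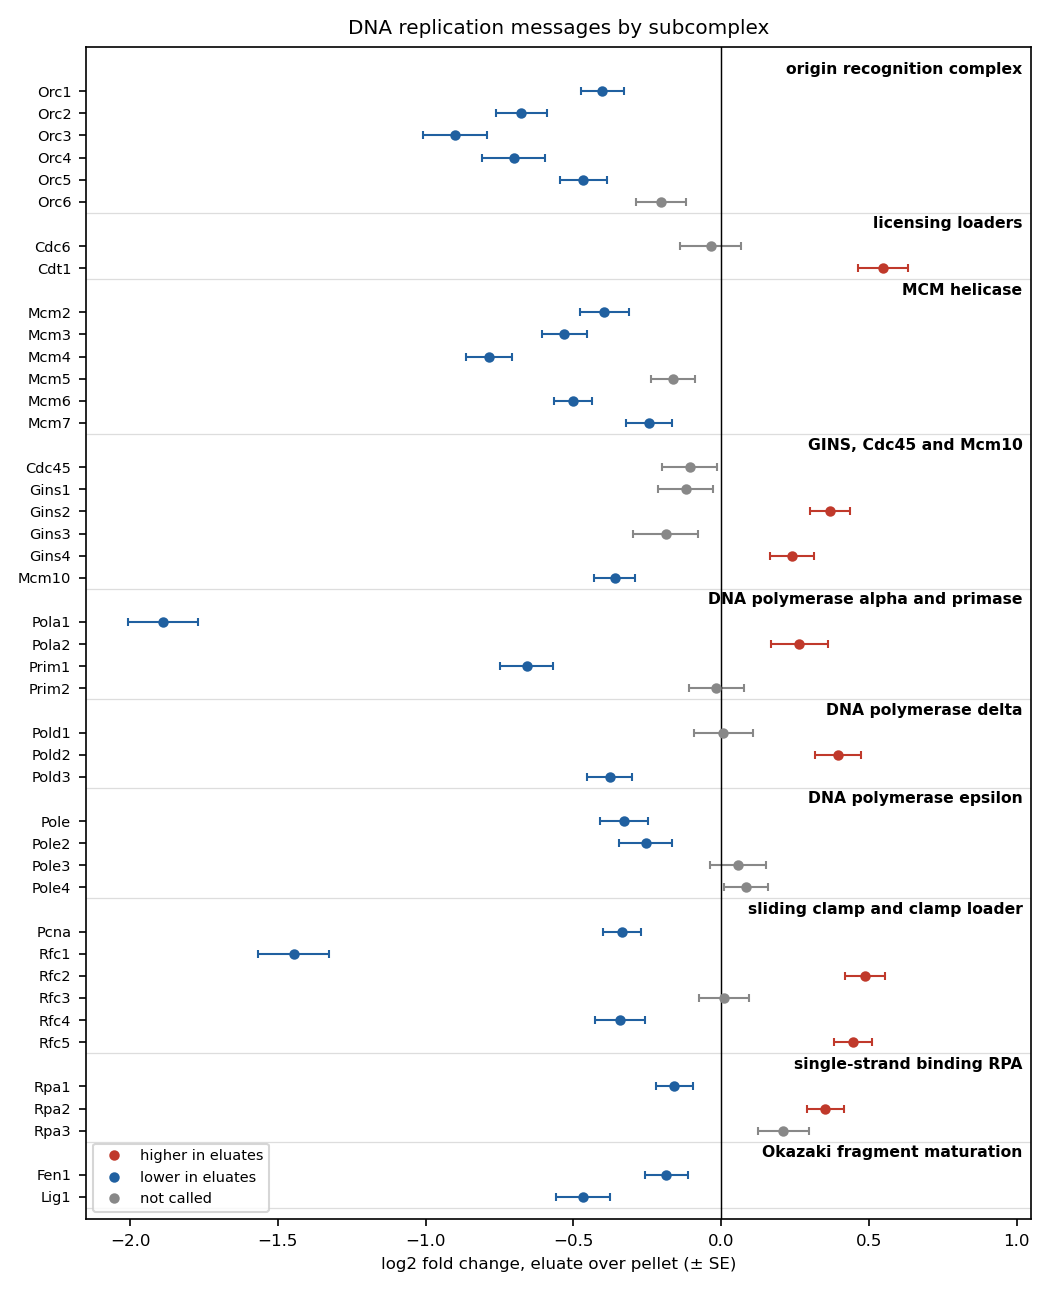
Log2 fold change of eluate over pellet (x axis) for the 42 members, grouped by subcomplex down the page, with bars for the SE from 3 libraries per group. Red points are higher in the eluates, blue points lower and grey points not called, and the farthest left are Pola1 at -1.89 and Rfc1 at -1.45.

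The origin recognition complex was lower in the eluates almost throughout. Of its 6 subunits 5 fell, Orc1 to Orc5, and Orc6 did not pass, with a median log2 fold change of -0.57. The median GC content of the 6 was 43.4%, and of all genes tested with under 45% GC 72.1% were lower. Orc3, a core subunit of the ring around DNA, had the lowest fold change of the complex. It stood at 41.4, 34.7 and 30.9 normalised CPM in eluates 1 to 3, against 59.9, 71.2 and 68.9 in pellets 1 to 3. Every eluate was below every pellet, and Orc3 fell by 0.90 on the log2 scale (SE 0.11, adjusted p = 6.97e-06). Orc6, the smallest subunit and the one with the highest level at 68.8 TPM in the eluates and 81.5 TPM in the pellets, had 72.0, 68.6 and 76.7 normalised CPM in the eluates and 74.7, 88.7 and 86.7 in the pellets. Eluate 3 lay above pellet 1 there, so the groups overlapped, and its log2 fold change was -0.20 ± 0.084 (adjusted p = 0.0528). Without pellet 1 Orc6 was called at -0.28 (adjusted p = 0.00121). Orc2, Orc4, Orc5 and Orc1, which with Orc3 make up the core that binds origins, fell by 0.68, 0.70, 0.47 and 0.40. Orc4 had the lowest GC content of all 42 members, 37.5% over its transcripts. When the trend with GC content and length was removed, the calls of Orc1, Orc2 and Orc5 were lost. The signs of Orc4 and Orc5 turned in that fit, as given further on. Orc4 was called as higher there, so its place among the 5 that fell holds only with the trend kept.

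The loaders that bring the MCM ring to the origin did not move together. Cdt1, which carries the ring to the origin and is destroyed once S phase begins, had the highest fold change of all 42 members. Its values were 194, 185 and 185 normalised CPM in eluates 1 to 3, against 149, 117 and 121 in pellets 1 to 3. All eluates were above all pellets, pellet 1 being the highest pellet, and Cdt1 rose by 0.55 ± 0.086 (adjusted p = 7.83e-05). With the trend in GC content and length removed, Cdt1 was at 0.13 and its call was lost (adjusted p = 0.0874). Cdc6, the ATPase that closes the origin complex around DNA, had 58.3, 51.8 and 46.2 in the eluates against 60.4, 48.8 and 51.4 in the pellets. These values overlap, and the log2 fold change was -0.04 ± 0.10 (adjusted p = 0.796). The level of Cdt1 was 91.0 TPM in the eluates and 69.0 TPM in the pellets, and that of Cdc6 was 18.2 and 19.6 TPM.

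The MCM helicase was lower in the eluates for 5 of its 6 subunits, with a median log2 fold change of -0.45. All 6 have coding sequences of at least 2000 nt. Of all genes tested in that class 49.2% were lower, with a median of -0.34. The 6 proteins are related ATPases that form a single ring, and each carries a P-loop, the motif that grips the phosphates of ATP. The coding sequence around that motif is shown because it is what the subunits have in common. The capitals mark the 8 codons of the P-loop, found by translating the most abundant coding transcript of each gene, with 27 bases on either side, 5′ to 3′, from GENCODE mouse release 21.
Mcm2: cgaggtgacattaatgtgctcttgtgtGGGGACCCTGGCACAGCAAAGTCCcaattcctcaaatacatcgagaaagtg
Mcm3: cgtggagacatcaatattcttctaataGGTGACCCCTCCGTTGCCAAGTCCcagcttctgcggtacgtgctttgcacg
Mcm4: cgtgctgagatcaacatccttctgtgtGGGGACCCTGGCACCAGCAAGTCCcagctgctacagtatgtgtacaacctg
Mcm5: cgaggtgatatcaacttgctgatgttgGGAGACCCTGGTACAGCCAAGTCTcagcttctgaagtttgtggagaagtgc
Mcm6: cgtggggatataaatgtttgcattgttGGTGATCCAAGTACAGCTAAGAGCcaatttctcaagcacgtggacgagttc
Mcm7: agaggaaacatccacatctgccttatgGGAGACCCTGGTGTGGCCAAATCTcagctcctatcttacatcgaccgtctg
Across the whole coding sequence of these transcripts the GC content ran between 48.0% for Mcm4 and 56.7% for Mcm2, with Mcm6 at 48.9%, Mcm7 at 53.1%, Mcm3 at 53.5% and Mcm5 at 54.9%. The coding lengths were alike, at 2160 nt for Mcm7 to 2715 nt for Mcm2.

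Mcm4, the subunit with the lowest coding GC, had the lowest fold change of the ring. It stood at 111, 109 and 93.8 normalised CPM in the eluates against 173, 187 and 182 in the pellets. The gap between the groups was wider than either group, and Mcm4 fell by 0.79 (SE 0.077, adjusted p = 8.30e-07). Mcm5, the subunit with the highest level at 131 TPM in the eluates and 160 TPM in the pellets, had 396, 376 and 363 normalised CPM in the eluates against 465, 386 and 419 in the pellets. Eluate 1 was above pellet 2, and its log2 fold change was -0.16 ± 0.073 (adjusted p = 0.0745). Without pellet 2 Mcm5 was called at -0.22 (adjusted p = 0.0229). Mcm3 and Mcm6 fell by 0.53 and 0.50, Mcm2 by 0.39 and Mcm7 by 0.24, with adjusted p of 2.71e-05, 1.19e-05, 0.000817 and 0.0169. The call of Mcm7 was lost without eluate 3. Per length the level of Mcm4 was 0.243, 0.251 and 0.226 times that of Mcm5 in eluates 1 to 3, against 0.318, 0.394 and 0.363 times in pellets 1 to 3, a pair chosen after its values were seen.

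**Figure D2:**
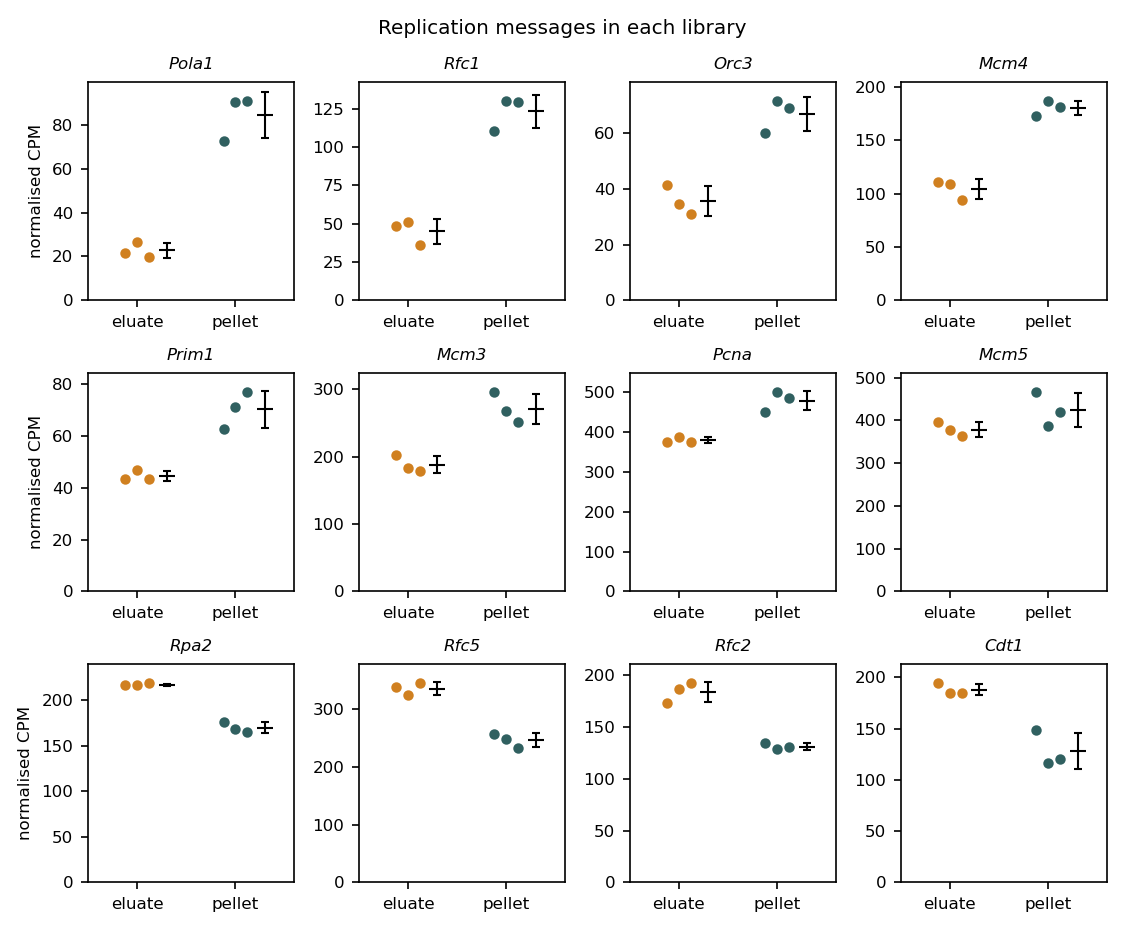
Normalised CPM (y axis, from 0) of 12 members in each library, with eluates left of pellets, 3 points per group and a black bar for the mean ± SD. Pola1, Rfc1, Orc3 and Mcm4 show wide gaps with the eluates low, Mcm5 overlaps between groups, and Rpa2, Rfc5, Rfc2 and Cdt1 are high in the eluates.

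The partners that turn the MCM ring into an active helicase were split. Of Cdc45, the 4 GINS subunits and Mcm10, 2 rose, 1 fell and 3 did not pass, with a median log2 fold change of -0.11. Gins2 had 148, 151 and 152 normalised CPM in the eluates against 122, 116 and 112 in the pellets. The eluates all lay above the pellets, and Gins2 rose by 0.37 ± 0.068 (adjusted p = 0.000279). In limma fits of TPM in place of counts Gins2 was at 0.25 to 0.26 and its call was lost (adjusted p = 0.0579 to 0.0896). Gins4, with the highest level of the group at 90.8 TPM in the eluates and 81.3 TPM in the pellets, had 105, 112 and 106 normalised CPM in the eluates against 85.2, 94.7 and 93.9 in the pellets. It rose by 0.24 ± 0.074 (adjusted p = 0.0122), a call that was lost without eluate 2. Mcm10, which is needed for the assembled helicase to start unwinding and is no part of the ring, had 111, 102 and 103 normalised CPM in the eluates against 139, 135 and 133 in the pellets. No eluate reached a pellet, and Mcm10 fell by 0.36 (SE 0.069, adjusted p = 0.000409). Gins1, Gins3 and Cdc45 had log2 fold changes of -0.12, -0.19 and -0.11 and did not pass. Gins1 was called without pellet 1, at -0.21 (adjusted p = 0.0222).

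DNA polymerase alpha and primase held both the lowest fold change of the list and a rise. Pola1, the catalytic subunit that extends the RNA primer, had 21.6, 26.6 and 19.9 normalised CPM in eluates 1 to 3 and 72.4, 90.2 and 90.6 in pellets 1 to 3. The highest eluate was less than the lowest pellet by a wide margin, and Pola1 fell by 1.89 (SE 0.12, adjusted p = 6.60e-08), a change of -73.0%. Its transcript is 5346 nt long with a coding sequence of 4398 nt, the longest of the list when coding lengths are averaged over each gene's transcripts by TPM. Pola2, the regulatory subunit that holds Pola1, had 75.8, 66.0 and 65.4 normalised CPM in the eluates against 65.3, 56.0 and 51.2 in the pellets. The lowest eluate was just above the highest pellet, and Pola2 rose by 0.26 ± 0.097 (adjusted p = 0.0317). The call of Pola2 was lost without eluate 1, pellet 2 or pellet 3 and with transcript lengths taken into account. Prim1, the catalytic primase and the subunit with the highest level at 33.7 TPM in the eluates and 54.3 TPM in the pellets, had 43.2, 46.7 and 43.3 normalised CPM in the eluates against 62.6, 71.0 and 76.7 in the pellets. It fell by 0.66 (SE 0.090, adjusted p = 1.93e-05) with no overlap between groups. Prim2, the larger primase subunit, was at -0.02 ± 0.094 (adjusted p = 0.897). Per length, Pola1 stood at 0.151, 0.209 and 0.161 times Pola2 in the eluates and at 0.558, 0.761 and 0.855 times in the pellets, a pair chosen after its values were seen.

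In DNA polymerase delta the catalytic subunit stood between its partners while the trend in GC content and length was kept. With that trend removed the catalytic subunit was the lowest of the enzyme, at -0.37 (adjusted p = 8.54e-05). Pold1, the catalytic subunit, had the highest GC content of the 42 members at 60.7% and a log2 fold change of 0.01 ± 0.10 (adjusted p = 0.96). Pold2, the subunit that holds Pold1 and Pold3 together, had 223, 203 and 222 normalised CPM in the eluates against 184, 151 and 158 in the pellets. The groups did not overlap, and Pold2 rose by 0.39 ± 0.079 (adjusted p = 0.000565), although the sign turned with the GC and length trend removed. Pold2 was at -0.13 there and not called (adjusted p = 0.0729). With replicate numbers added to that fit as a block, Pold2 was called as lower (adjusted p = 0.0493), so its direction depended on the fit. It also had the highest level of the enzyme, 136 TPM in the eluates and 113 TPM in the pellets. Pold3, which carries a PCNA-binding tail, had 66.4, 64.8 and 63.0 in the eluates against 79.5, 84.2 and 88.4 in the pellets. The eluates lay close together below all pellets, and Pold3 fell by 0.38 (SE 0.076, adjusted p = 0.000642).

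In DNA polymerase epsilon 2 of 4 subunits fell, Pole and Pole2, and the result for the largest depended on the scale. Pole, the catalytic subunit, had 58.9, 56.5 and 60.3 normalised CPM in the eluates against 79.5, 72.5 and 68.5 in the pellets. No eluate reached a pellet, and Pole fell by 0.33 (SE 0.082, adjusted p = 0.00303). Pole4, a small histone-fold subunit and the one with the highest level at 59.3 TPM in the eluates and 57.4 TPM in the pellets, had 78.9, 79.7 and 79.5 normalised CPM in the eluates against 71.1, 77.4 and 76.0 in the pellets. All eluates were above all pellets by a small margin, and the log2 fold change was 0.08 ± 0.074 (adjusted p = 0.361). Pole2, the regulatory B subunit, fell by 0.25 (adjusted p = 0.0253), a call that held without pellet 1 and was lost without any of the other 5 libraries and with DESeq2. Pole3, the other histone-fold subunit, was at 0.06 (adjusted p = 0.64).

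Summed over transcripts, the fall of Pole in counts did not hold per length. Its reads were assigned to transcripts of very different size. The full message of 7163 nt had 463, 415 and 452 estimated reads in the eluates and 488, 525 and 419 in the pellets. As RPM, reads-per-million of the matched total, these were 40.5, 37.5 and 45.9 in the eluates, against 59.2, 51.2 and 54.6 in the pellets, with no overlap. A transcript of 747 nt had 10.5, 10.4 and 8.98 RPM in the eluates, against 5.78, 5.40 and 4.35 in the pellets, with every eluate above every pellet. One of 1523 nt had 8.14, 8.21 and 6.24 RPM in the eluates and 17.7, 13.2 and 7.87 in the pellets, and these overlapped. Per length the full message stood at 5.31, 4.82 and 5.90 TPM in the eluates. In the pellets it stood at 8.64, 6.90 and 7.57 TPM, with no overlap. Summed over transcripts, Pole stood at 29.9 TPM in the eluates and 28.1 TPM in the pellets. Of that sum the 747 nt transcript held 62.9% to 65.0% in the eluates and 35.0% to 39.1% in the pellets. The 747 nt transcript held 33.4 to 120 reads per library, and an estimate that divides reads among overlapping transcripts is uncertain at that depth.

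**Figure D3:**
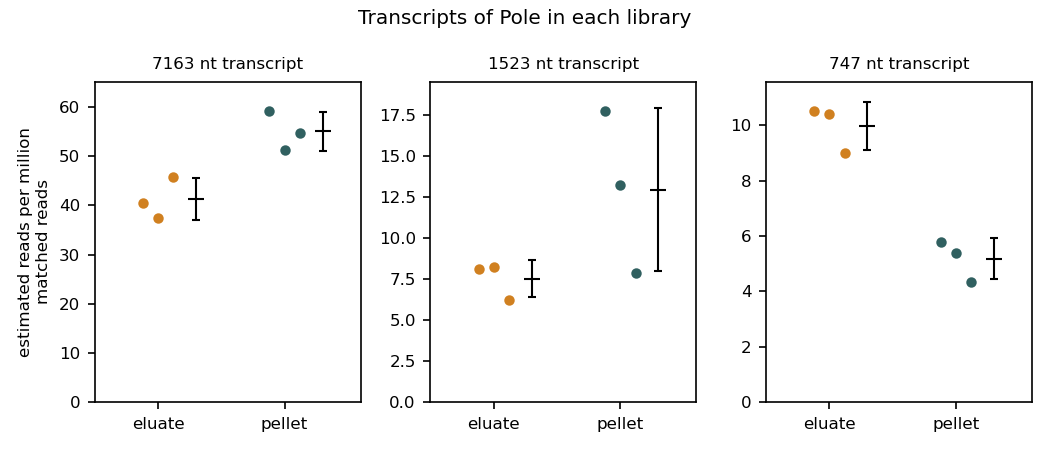
RPM, estimated reads scaled to the matched total of the library (y axis, from 0), for the 3 transcripts of Pole with a mean TPM of at least 0.5. Eluates are left of pellets, with 3 points per group and a bar for the mean ± SD. The 7163 nt transcript is lower in every eluate, at 37.5 to 45.9, and the 747 nt transcript is higher in every eluate, at 8.98 to 10.5.

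The clamp and its loader held members that moved far in opposite directions. Of the 6 genes 3 fell, 2 rose and 1 did not pass, with a median log2 fold change of -0.16. Replication factor C is built of a large subunit, Rfc1, and 4 small ones, and all 5 are related proteins. The P-loop codons of the 5 subunits, shown in capitals with 27 bases on either side as for the MCM genes, mark the sequence they share.
Rfc1: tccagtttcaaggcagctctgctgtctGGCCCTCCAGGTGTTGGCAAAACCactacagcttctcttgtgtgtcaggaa
Rfc2: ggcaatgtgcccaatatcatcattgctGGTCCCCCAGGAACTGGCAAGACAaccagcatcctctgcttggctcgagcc
Rfc3: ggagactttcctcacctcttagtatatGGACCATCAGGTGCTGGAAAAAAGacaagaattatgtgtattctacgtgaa
Rfc4: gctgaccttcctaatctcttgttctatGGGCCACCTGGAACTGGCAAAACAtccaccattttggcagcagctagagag
Rfc5: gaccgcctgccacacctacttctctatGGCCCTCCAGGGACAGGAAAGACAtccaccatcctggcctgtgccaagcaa
Over the coding sequence of the same transcripts GC content was 45.9% for Rfc1, 54.5% for Rfc2, 49.0% for Rfc3, 43.7% for Rfc4 and 52.4% for Rfc5. That coding sequence is 3396 nt long in Rfc1 and 1020 to 1095 nt in the others.

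Rfc1, the subunit that opens the clamp, had 48.2, 51.1 and 35.8 normalised CPM in eluates 1 to 3 and 111, 130 and 129 in pellets 1 to 3. Every eluate was below every pellet, and Rfc1 fell by 1.45 (SE 0.12, adjusted p = 1.51e-06). Rfc2 went the other way, with 173, 187 and 192 in the eluates against 135, 128 and 131 in the pellets. It rose by 0.49 ± 0.068 (adjusted p = 2.39e-05), and Rfc5 rose by 0.45 ± 0.064 (adjusted p = 3.15e-05). Rfc4 fell by 0.34 (adjusted p = 0.0029) and Rfc3 was at 0.01 (adjusted p = 0.928), so in this fit the 4 small subunits moved in both directions. The call of Rfc4 was lost with the trend in GC content and length removed, at -0.09 (adjusted p = 0.355). Per length, the level of Rfc1 was 0.318, 0.310 and 0.213 times that of Rfc2 in the eluates, against 0.937, 1.11 and 1.13 times in the pellets, a pair chosen after its values were seen. Pcna, the clamp itself, was the message with the highest level of all 42, at 313 TPM in the eluates and 405 TPM in the pellets. It had 376, 388 and 374 normalised CPM in the eluates against 451, 499 and 486 in the pellets, without overlap, and fell by 0.34 (SE 0.064, adjusted p = 0.000367). A pseudogene, Pcna-ps2, held 3160 estimated counts over the 6 libraries and was at -0.34 ± 0.087, so reads of Pcna may be split between the copies.

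RPA, the heterotrimer that coats single-stranded DNA, had a subunit in each class. Rpa1, the large subunit that binds DNA, had 267, 261 and 260 normalised CPM in the eluates against 300.2, 297 and 281 in the pellets. It fell by 0.16 (SE 0.062, adjusted p = 0.0411) with no overlap, but the call was lost without eluate 1, 2 or 3 or pellet 2 and with DESeq2. Rpa2, the subunit phosphorylated after DNA damage, had 217, 217 and 219 normalised CPM in the eluates against 177, 169 and 165 in the pellets. The eluates were nearly identical and above all pellets, and Rpa2 rose by 0.35 ± 0.063 (adjusted p = 0.000231). Rpa3, the small subunit with the highest level at 218 TPM in the eluates and 187 TPM in the pellets, had 82.4, 89.4 and 76.6 normalised CPM in the eluates against 65.2, 78.3 and 70.9 in the pellets. Eluate 3 lay below pellet 2, and its log2 fold change was 0.21 ± 0.088 (adjusted p = 0.054). Rpa3 was called without eluate 3 (adjusted p = 0.0433) and without pellet 2 (adjusted p = 0.0198).

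Both enzymes that finish Okazaki fragments were lower in the eluates. Lig1, the ligase that seals the nicks, had 141, 137 and 115 normalised CPM in the eluates and 204, 167 and 174 in the pellets. The groups were apart, and Lig1 fell by 0.47 (SE 0.091, adjusted p = 0.000599). Fen1, the flap nuclease that trims the RNA-primed ends, had 107, 102 and 99.0 in the eluates against 125, 114 and 110 in the pellets. It fell by 0.19 (SE 0.074, adjusted p = 0.0465), with a call that held only without pellet 3 among the 6 fits that leave out a library, and that was lost with DESeq2 and limma voom. The level of Fen1 was 46.3 TPM in the eluates and 56.5 TPM in the pellets, and that of Lig1 was 40.1 and 60.4 TPM.

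The direction of a member went with the length of its coding sequence. Among the 14 members with a coding sequence of at least 2000 nt, 12 fell, none rose, and Mcm5 and Pold1 did not pass. Among the 18 of 1000 to 2000 nt, 9 fell and 5 rose, and among the 10 shorter ones 1 fell, Pcna, and 3 rose. The median log2 fold changes were -0.44, -0.13 and 0.07 in these classes. Over all genes tested the same classes had medians of -0.34, -0.02 and 0.24, with 49.2%, 29.4% and 11.8% of genes lower. The shares of all genes that were higher in these classes were 10.16%, 22.46% and 41.96%. Across the 42 members Spearman's rho between fold change and coding length was -0.54, and that with GC content was 0.48. These relations are descriptions over genes that share the same 6 libraries. No member with under 45% GC rose, 8 of 10 fell, and the same class of all genes had 1.77% higher and 72.1% lower. Of the 16 members at or above 50% GC, 7 rose and 7 fell, while over all genes of that class 39.95% were higher and 6.64% lower.

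**Figure D4:**
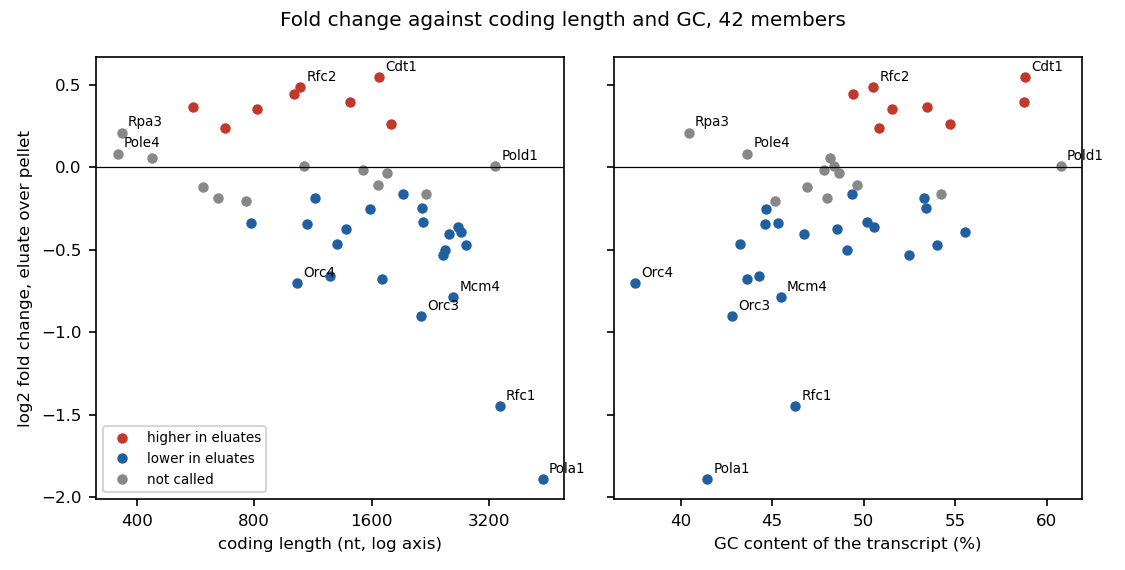
Log2 fold change of eluate over pellet (y axis) against coding length on a log axis (left) and transcript GC content (right) for the 42 members, red for higher, blue for lower and grey for not called. Pola1 and Rfc1 have the longest blue coding sequences and the lowest values, and Pold1 is long but GC-rich and sits at 0.01.

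Since the all-gene classes differed by GC content and coding length, the members were also fitted with each library's smooth trend in GC content and transcript length removed. In that fit 16 members were lower, 7 higher and 19 not called, where 34.9% of all genes tested were called, 15.6% lower and 19.3% higher. Of the 22 that fell before, 14 were still lower, and of the 8 that rose 4 were still higher. In the MCM ring all 6 subunits were lower and called, between -0.30 for Mcm4 and -0.60 for Mcm3, and Mcm5 was now called at -0.34 (adjusted p = 8.66e-06). Lig1 and Fen1 were lower too, at -0.61 and -0.36, as were Pola1 at -0.91 and Rfc1 at -0.92. Prim1, Mcm10, Pole, Pold3 and Orc3 were lower at -0.31, -0.25, -0.30, -0.18 and -0.30. Pold1, not called before, was lower at -0.37 (adjusted p = 8.54e-05).

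In the origin recognition complex most calls ended in that fit, and the difference from the MCM ring was not tested. Of its 5 calls, that of Orc3 was kept, and Orc1, Orc2 and Orc5 were at -0.07, -0.07 and 0.07 and not called. Orc4 turned to 0.41 and was called as higher (adjusted p = 0.00173), so no direction is given for it. Calls of Pcna, Rfc4, Pole2 and Rpa1 ended as well, at -0.09, -0.09, 0.09 and -0.01. Among the members that rose, Rfc2 at 0.73, Rfc5 at 0.56, Gins2 at 0.33 and Rpa2 at 0.21 were still called, while Cdt1 at 0.13, Gins4 and Pola2 at 0.04 and Pold2 at -0.13 were not. The small subunits Rpa3 and Pole4 were called as higher at 0.79 and 0.52. Across members the rank relation with coding length was -0.74 in this fit, while that with GC content was -0.21. The trend was removed for the length of the whole transcript. Rfc2, Gins2 and Rfc5 have short coding sequences, 1050, 558 and 1011 nt, in transcripts of 4995, 3900 and 2768 nt. Whether the choice of length bears on their values was not tested.

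**Figure D5:**
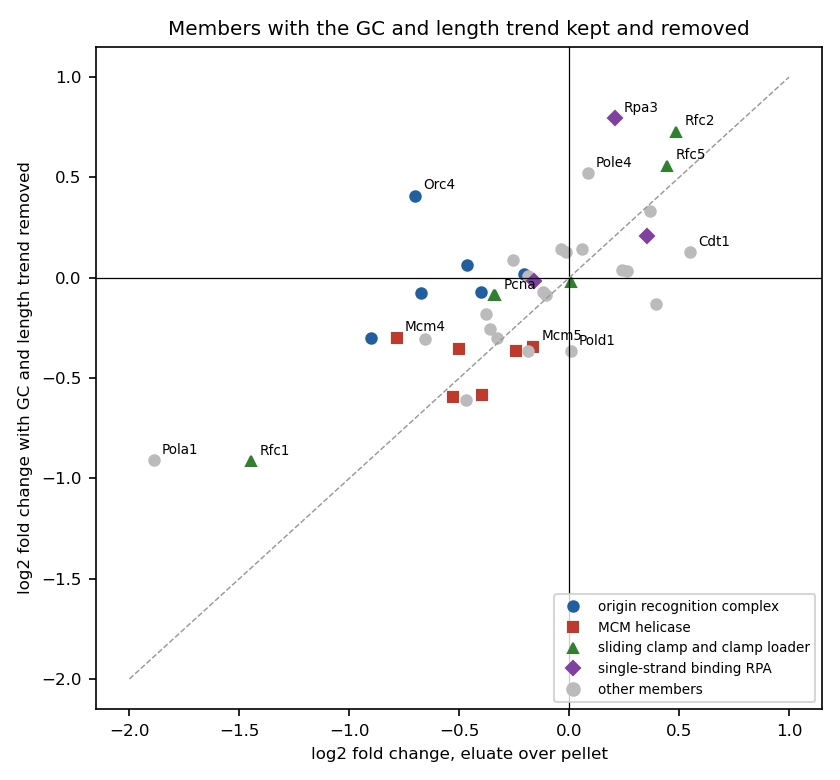
Log2 fold change of eluate over pellet with the GC and length trend removed (y axis) against that with the trend kept (x axis) for the 42 members, with a dashed line where both are equal. The 6 MCM squares all lie below 0 on both axes, while the origin recognition circles rise toward or above 0 on the y axis, with Orc4 at 0.41.

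Other genes of replication, in 3 lists set by name, gave 12 higher, 23 lower and 15 not called of 50, with a median log2 fold change of -0.19, beside 24.5% higher and 28.2% lower of all genes tested. With the GC and length trend removed they gave 11 higher, 15 lower and 24 not called, with a median of -0.05. Of the 23 lower calls 11 were still lower there, and of the 12 higher calls 4 were still higher. Another 3 genes, named after their values were seen, were called in opposite directions by both fits, so no direction is given for them: Gmps at -1.01 and then 0.34, Rbbp4 at -0.18 and 0.52, and Rnaseh2c at 0.41 and -0.19.

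The origin firing and fork factors had 14 of 24 lower and 4 higher. Atad5, which unloads PCNA from DNA, had 16.0, 14.9 and 15.1 normalised CPM in the eluates against 32.9, 44.7 and 38.3 in the pellets and fell by 1.33 (SE 0.12, adjusted p = 4.99e-07). With the trend removed Atad5 was at -0.26 and its call was lost (adjusted p = 0.0514). Rnaseh2a, the catalytic subunit of a nuclease that removes ribonucleotides from DNA, rose by 0.55 ± 0.068, and with the trend removed it was at 0.06 and not called (adjusted p = 0.441). Tipin, a fork protection factor with the highest level of that list, was at -0.21 ± 0.11 (adjusted p = 0.129), was called as lower without pellet 1 at -0.34 and turned to 0.37 with the trend removed. Among 16 genes of nucleotide supply 7 rose and 4 fell. Rrm1, the large subunit of ribonucleotide reductase, fell by 0.96 (SE 0.079) and was at -0.34 and still called with the trend removed. Dut, which removes dUTP, rose by 0.52 ± 0.065 and was at 0.12 and not called with the trend removed (adjusted p = 0.0712). The abundant nucleoside diphosphate kinase gene Nme2 rose by 0.43 ± 0.067 and was at -0.10 and not called with the trend removed. Of 10 genes that assemble chromatin at the fork, 5 fell and 1 rose. Supt16, a subunit of the histone chaperone FACT, fell by 1.39 (SE 0.11), the histone chaperone gene Nasp fell by 1.12 (SE 0.14), and Asf1b, another histone chaperone, rose by 0.38 ± 0.082. With the trend removed these were at -0.81, -0.70 and 0.21 and still called.

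The authors' deposited table lists genes with an adjusted p under 0.05 and holds 26 of the 42 members, 8 higher and 18 lower. All 26 had the same sign as in the fit described here, and the log2 fold changes differed by at most 0.18. The authors' deposited table has -1.81 for Pola1, -1.45 for Rfc1, -0.76 for Mcm4 and 0.50 for Cdt1. Of its 26 members 2, Mcm5 and Rpa3, were not called here, and 6 that were called here are not in it. For the 26, the mean count over libraries was 0.962 to 1.04 times the mean normalised count of the authors' deposited table.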

How the data were processed

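Estimated counts and TPM came from the authors' deposited Salmon output, 1 file per library, which per the file headers also gives transcript lengths and effective lengths. Tools listed, without roles, in the submitters' processing notes are Salmon 1.10.3, DESeq2 1.44.0, STAR 2.7.11b and cutadapt 4.7, with build GRCm39. Not given in the sources used here is the annotation release. The authors' deposited comparison table holds mean normalized counts (a signal), log2 fold changes with errors, a Wald score, and p-values.

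Identifiers of 76858 of 84226 transcripts were found in GENCODE mouse release 21, the source of names, coding spans, GC content and sequences, and no coordinates are given since builds differ. Unmatched transcripts held 1.63% to 2.35% of counts. Counts were summed per gene, rounded and tested, eluate over pellet, in R 4.3.3 with edgeR 4.0.16 (TMM, default low-count filter, robust quasi-likelihood fit) without a block. SE is the absolute log2 fold change over the square root of F. DESeq2 1.42.0 and limma 3.58.1 gave alternatives. Trends in GC and log2 length were splines with 5 degrees of freedom. Gene length and GC were weighted by TPM over transcripts. Summaries were made in Python 3.11.15 with scipy 1.17.1, numpy 2.4.6 and pandas 2.3.3, and figures with matplotlib 3.10.9. Fits were tested on simulated data, where edgeR's false calls exceeded the nominal share.

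Members and lists were chosen with earlier results of these data known. In each subcomplex the members with the highest and lowest fold change and the highest mean TPM have every library's values. In each other list the members with the smallest p in either direction and the highest mean TPM are named. Estimates can exchange reads between near-identical transcripts.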

Additional observations from a re-analysis of the deposited data

How the results depend on the processing

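Of 30 called members, 24 kept their call whichever single library was left out, and 13 kept it in all 18 alternatives, 11 lower and 2 higher (Rfc2 and Rfc5). Leaving out 1 library gave 7 to 9 members higher, 18 to 23 lower, and 5839 to 7761 genes called in all. With TPM in place of counts 5 members were higher with either pseudocount, with Gins2, Gins4, Pola2 and Pold2 lost and Rpa3 gained, and 3 with no filter on low values, where Cdt1 and Rpa2 were lost too and 4357 genes were called in all. Removing the trend in GC and length left 4624 genes called, and 4565 with the replicate block as well. Among the replication genes named here and called with the trend kept or removed, directions turned in that pair of fits for Orc4 (0.41 and 0.41), Orc5 (0.065 and 0.063), Pold1 (-0.37 and -0.37), Pold2 (-0.13 and -0.13), Pole2 (0.088 and 0.086), Tipin (0.37 and 0.37), Nme2 (-0.10 and -0.10), Gmps (0.34 and 0.33), Rbbp4 (0.52 and 0.52) and Rnaseh2c (-0.19 and -0.19). Orc6, Cdc6, Gins3, Prim2 and Rfc3 changed sign with no call in either. Pole turned to 0.18 with effective length as an offset and to 0.11, 0.11 and 0.11 with TPM (pseudocounts 1 and 0.1, and no filter). These fits weigh transcripts of unequal length per length. The cause of the turn was not tested for Pole or for the others.

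The labels' protocols divide each cushion between direct extraction and resin, so the groups share starting material, but no label says that the replicate numbers mark a shared cushion. The numbers were not taken as pairs: deviations from group means correlated at 0.070, 0.15 and -0.010 for libraries numbered 1, 2 and 3, and eluate 3 correlated best with pellet 1, at 0.11. With the replicate block 9 members were higher, 24 lower and 7076 genes called, with Orc6 (adjusted p = 0.0444), Mcm5 (0.0396), Rpa3 (0.0284) and Tipin newly called. Calls with an adjusted p near the threshold, such as Fen1, Rpa1 and Pola2, are the least firm. On simulated data edgeR made more false calls than its nominal share. Far fewer genes were changed there than were called here, so that share may not carry over. Counts of 209 to 4126 per library limit the precision of the rarer members.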
